A study of Homo sapiens with 2 samples.

Results

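The genes in view encode the proteins of the cytosolic ribosome. They were taken as every probe set that the probe table assigns to a single gene whose symbol is RPSA, or is RPS, RPL or RPLP followed by a number. Kinases of the RPS6K group, pseudogenes, like-named paralogs ending in L and mitochondrial ribosomal proteins were left out, as were readthrough and antisense loci and RPS19BP1, which encodes a protein that binds RPS19. This gave 53 genes with 112 probe sets, of 19775 genes with 41091 probe sets on the array. The small (40S) subunit accounted for 21 genes and 50 probe sets, and the large (60S) subunit for 32 genes and 62 probe sets. A RefSeq gene table holds 79 protein-coding symbols of this form. The other 26, among them RPSA, RPLP0, RPL5 and RPS27A, had no probe set assigned to them alone and were not analysed here, apart from the probe sets that list them beside other genes, which are described at the end.

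The samples were HT-29 cells, an established colorectal adenocarcinoma line. One culture was transfected with an siRNA against firefly luciferase (siLuc, the baseline) and one with an siRNA against human IFITM1 (siIFITM1). IFITM1 is a membrane protein induced by interferon, known for blocking entry of viruses. Total RNA was collected at 72 h and hybridised to 1 array per siRNA, and the comparison asked how the transcriptome differed when IFITM1 was depleted. A single array per siRNA leaves no replicate spread to judge a difference by, so no test was run and no p-value is given.

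Ribosomes read mRNA on the small subunit and join amino acids on the large subunit. Each subunit is a core of ribosomal RNA covered by proteins that are made in near equal numbers, so the mRNAs of these proteins are among the most abundant in a growing cell. Their mRNAs begin with a C followed by a run of pyrimidines, the 5' terminal oligopyrimidine (TOP) tract, through which mTORC1 and the RNA-binding protein LARP1 control their translation and stability. In intestinal epithelium, as in other dividing tissue, ribosome production is tied to growth.

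IFITM1 went from a signal of 640 with siLuc to 237 with siIFITM1, which is 37.1% of baseline. RNA quality was close on both arrays, with a log2 ratio of 3' to 5' signal of -0.13 and -0.11 for GAPDH and of 0.12 and 0.13 for ACTB. The epithelial markers EPCAM, CDH1, KRT8, KRT18, KRT19, KRT20 and VIL1 were bright, from 3123 (VIL1) to 49185 (KRT18) with siLuc, and CDX2 was below the minimum signal described next. Of 11 markers of leukocytes, red cells, fibroblasts and endothelium, 8 passed, with signals of 47.4 to 386 on the 2 arrays. PTPRC, CD3E and VWF did not pass. The samples were of a cell line, and where these signals came from was not tested. Signals are MAS5 intensities on a linear scale, and both arrays had been scaled to the same mean (500.1 after removal of the outer 2% of probe sets at each end). The filter kept genes whose mean signal reached the median of all probe sets, 57.4.

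The starts of the genes are shown first, because the TOP tract is the sequence these mRNAs share. Each line gives 30 bases before the RefSeq transcription start and 20 bases from it (assembly GRCh38.p14, 5' to 3'). Capitals mark an uninterrupted pyrimidine run that opens with C at the annotated start and is at least 5 bases long. They were chosen to show small subunit genes (RPS), large subunit genes (RPL), the stalk (RPLP), genes with low and high ratios, and 2 genes without such a run, RPL27 and RPL3.
RPS6 (chr9:19380217-19380266, minus strand): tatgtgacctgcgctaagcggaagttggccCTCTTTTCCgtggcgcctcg
RPS3 (chr11:75399488-75399537, plus strand): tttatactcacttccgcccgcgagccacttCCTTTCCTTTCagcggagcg
RPS9 (chr19:54200828-54200877, plus strand): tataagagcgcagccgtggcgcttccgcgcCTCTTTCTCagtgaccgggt
RPS10 (chr6:34426050-34426099, minus strand): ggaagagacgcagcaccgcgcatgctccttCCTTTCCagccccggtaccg
RPS25 (chr11:119018324-119018373, minus strand): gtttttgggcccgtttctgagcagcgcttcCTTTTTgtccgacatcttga
RPL12 (chr9:127451387-127451436, minus strand): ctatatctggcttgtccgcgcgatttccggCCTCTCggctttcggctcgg
RPL29 (chr3:51995876-51995925, minus strand): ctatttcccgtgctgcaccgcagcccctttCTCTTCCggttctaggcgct
RPL24 (chr3:101686699-101686748, minus strand): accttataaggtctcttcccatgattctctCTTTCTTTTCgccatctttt
RPL27 (chr17:42998389-42998438, plus strand): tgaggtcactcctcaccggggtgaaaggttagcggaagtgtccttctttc
RPL3 (chr22:39319604-39319653, minus strand): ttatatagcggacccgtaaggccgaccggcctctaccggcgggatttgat
RPL27A (chr11:8682762-8682811, plus strand): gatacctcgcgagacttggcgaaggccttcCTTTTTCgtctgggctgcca
RPLP1 (chr15:69452788-69452837, plus strand): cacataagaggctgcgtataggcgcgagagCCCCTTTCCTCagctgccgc
RPLP2 (chr11:809937-809986, plus strand): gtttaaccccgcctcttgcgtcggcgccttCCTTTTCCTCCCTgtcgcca
RPL36A (chrX:101390981-101391030, plus strand): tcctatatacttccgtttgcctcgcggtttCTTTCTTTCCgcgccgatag

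Of the 52 genes that passed the filter, 46 had an entry in the promoter table. RPL23A, RPL30, RPL37, RPL7, RPL8 and RPS15A are the other members. The run was present in 34 of the 46 (73.9%), in 14 of 19 small subunit genes and 20 of 27 large subunit genes. Among all 15843 protein-coding genes in the table it was present in 988 (6.24%). Its length among the 34 genes was 5 to 19 bases with a median of 8, and RPL39 had the longest. The letters CGGAAG, the core of sites for ETS-family factors, were found on one strand or the other in the 250 bases before the start in 30 of 46 genes (65.2%), against 25.7% of all genes in the table. The TATA box letters TATAAA were found in 3 of 46 (6.52%), against 11.9%. These matches describe the windows only.

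Most ribosomal protein mRNAs gave a slightly lower signal with siIFITM1. Of the 52 genes that passed, 46 had a log2 ratio (siIFITM1 over siLuc) below 0. Among all 12225 genes that passed the share below 0 was 52.6%. The median over the 52 genes was -0.095, so the typical gene was at 93.6% of its siLuc signal, and the median over all genes was -0.018. Each gene is represented by its probe set with the highest mean signal. The middle of the distribution was narrow, with quartiles at -0.13 and -0.046. RPS4Y1, the Y-linked copy of RPS4X, was the single gene that did not pass the filter. A difference of at least 0.32 on the log2 scale was reached by RPLP2 and RPL27A on the lower side, where the background was 17.4% of all genes. It was reached by RPL36A on the higher side, where the background was 12.9%.

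**Figure D1:**
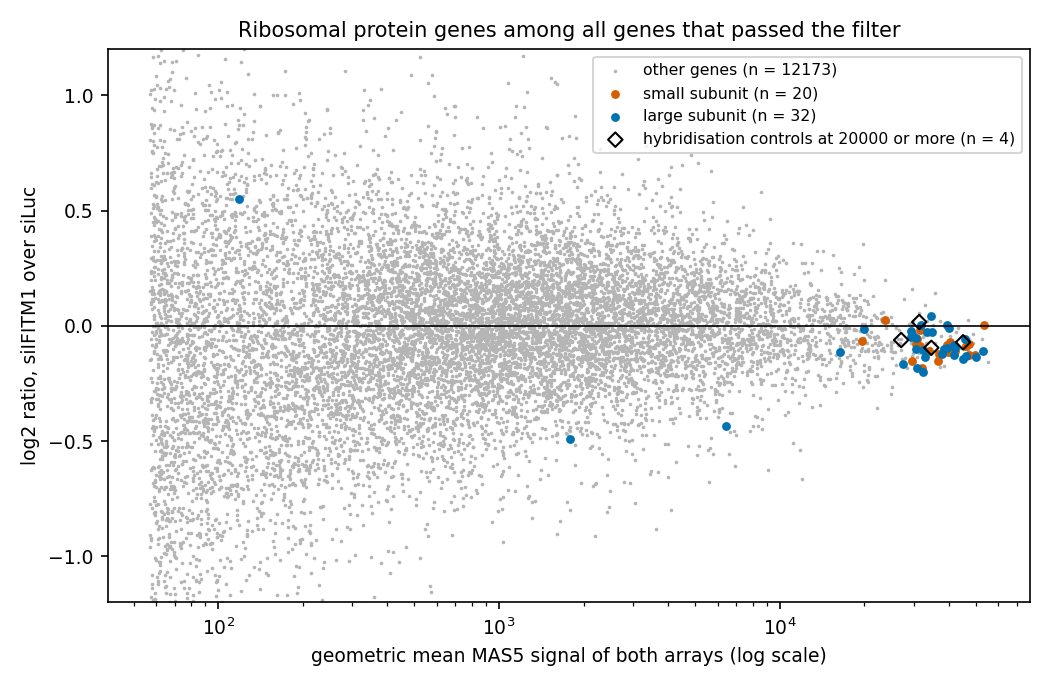
Log2 ratio (siIFITM1 over siLuc) against the geometric mean signal of both arrays on a log scale, for 12225 genes, with one point per gene; 213 genes lie beyond the axis at 1.2 on either side. Of the 52 ribosomal protein genes, 46 sit at signals of 20000 or more, close to the 4 hybridisation controls of the same brightness, and most lie just below 0.

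Small subunit genes formed a tight group. All 20 that passed had signals between 20076 and 53266 with siLuc and between 19187 and 53416 with siIFITM1. Their log2 ratios ran from -0.18 to 0.027, 18 of 20 were below 0, and the median was -0.087. RPS9, which lies near the mRNA entry site, had the lowest ratio, with 34033 in siLuc and 30014 in siIFITM1 (-0.18). RPS4X, the X-linked form of a core protein, was next, with 38552 and 34719 (-0.15). RPS29, a small zinc-binding protein of the head, had 31241 and 28148 (-0.15).

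Proteins with known signalling or surveillance roles lay in the same band. RPS6, the substrate of the S6 kinases, had 49221 with siLuc and 45146 with siIFITM1 (-0.12), and its 3 probe sets past the filter spanned only -0.12 to -0.079. RPS10, which is ubiquitylated when ribosomes collide, had 51755 and 47402 (-0.13). RPS3, which lines the entry channel, had 38384 and 35296 (-0.12). RPS10 had 2 more bright probe sets at -0.13 and -0.12 and a dimmer one at -0.48 (3156 and 2266), and RPS3 had a single probe set.

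At the other end of the small subunit were RPS25, RPS19, RPS7 and RPS15A. RPS25, which is needed for initiation at some viral internal entry sites, had 23382 with siLuc and 23826 with siIFITM1 (0.027). RPS19, the gene most often mutated in Diamond-Blackfan anaemia, had 53266 and 53416 (0.0041), but a second bright probe set of RPS19 was at -0.14. RPS7, a binding partner of MDM2, had 31798 and 31418 (-0.017). RPS15A had 31439 and 30230 (-0.057). The values of RPS25 and RPS19 on the 2 arrays were closer than the spread between probe sets of the same gene, which is given below.

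Large subunit genes had the same centre and a wider spread, mostly from genes read by dimmer probe sets. The SD of the ratios was 0.16, against 0.052 for the small subunit. At a mean signal of at least 20000 it was 0.062 for the large subunit and 0.053 for the small. Of the 32 that passed, 28 were below 0, the median was -0.097, and ratios ran from -0.49 to 0.55. Among proteins of the body of the subunit, RPL3, which reaches the peptidyl transferase centre, had 32723 with siLuc and 28847 with siIFITM1 (-0.18). RPL8, a neighbour of that centre, had 47262 and 42755 (-0.14). RPL29, a small basic protein, had 29180 and 25992 (-0.17). RPL12, at the base of the stalk, had 34696 and 30197 (-0.20), and its other probe set gave -0.19. RPL11, which forms the 5S particle with RPL5 and binds MDM2 when assembly is disturbed, had 33821 and 33204 (-0.027), and its ratio was 0.060 after quantile normalization.

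The highest ratios among bright probe sets of the large subunit were small. RPL27 had 33915 with siLuc and 34905 with siIFITM1 (0.042). RPL24, a protein of the bridge between the subunits, had 39386 and 39533 (0.0054), and RPL32 had 31866 and 31939 (0.0033). The difference between the medians of the subunits, large minus small, was -0.0099. The quartiles were -0.12 and -0.068 for the small subunit and -0.13 and -0.027 for the large. Whether the medians differ was not tested. The sign turned (0.044) over the 25 genes that remained without probe sets marked as sharing probes.

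**Figure D2:**
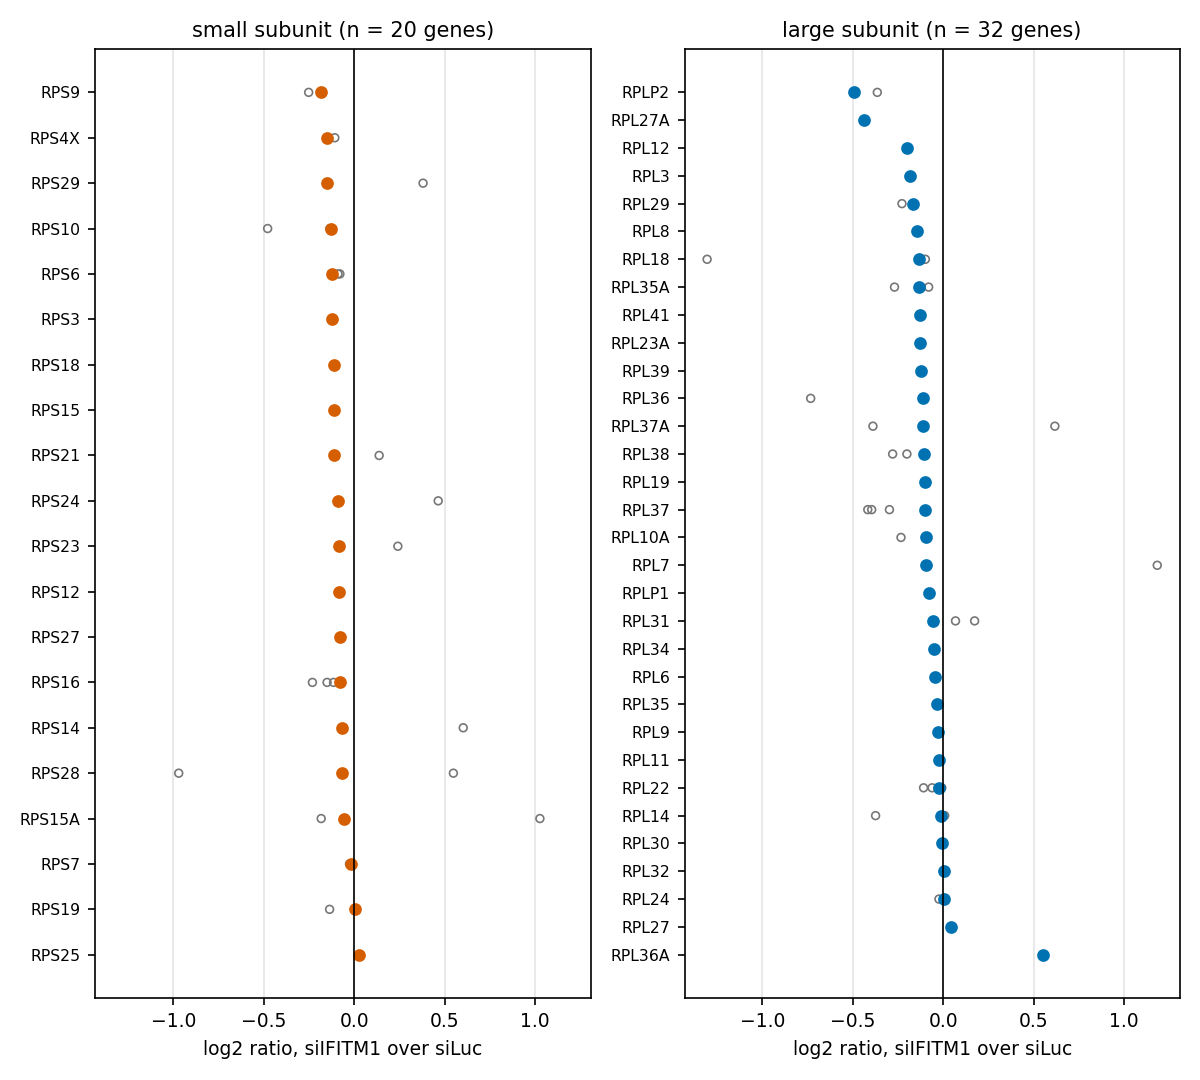
Log2 ratio (siIFITM1 over siLuc) of each ribosomal protein gene that passed the filter, small subunit on the left and large subunit on the right, ordered by the ratio of the representative probe set (filled). Open circles are the gene's other probe sets past the filter; filled points stay within -0.20 to 0.042 except for RPLP2, RPL27A and RPL36A, while open circles spread from -1.31 to 1.18.

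The 3 genes outside the band were among the 6 whose representative probe set had a mean signal below 20000. The others, RPS28 (-0.065), RPL36 (-0.11) and RPL14 (-0.012), lay inside it. RPLP2, with RPLP1 an acidic protein of the stalk that recruits elongation factors, had 2127 with siLuc and 1513 with siIFITM1 (-0.49), and a dimmer probe set gave -0.37. RPL27A had 7492 and 5536 (-0.44). RPL36A had 97.8 and 143 (0.55). RPLP1 was read by a bright probe set, with 42934 and 40565 (-0.082).

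Brighter probe sets that list these genes together with another gene gave values inside the band. One listed for RPLP2 and the snoRNA gene SNORA52 had 52287 with siLuc and 47930 with siIFITM1 (-0.13). One listed for RPL27A and SNORA3A had 42697 and 43824 (0.038). One listed for RPL36A and its readthrough locus had 45648 and 42768 (-0.094). How much of each such signal comes from the ribosomal protein mRNA is not settled by the annotation, and the large ratios of RPLP2, RPL27A and RPL36A rest on their dimmer probe sets. These probe sets were looked up after the ratios had been seen.

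Probe sets of the same gene agreed closely where they were bright. Over 14 ribosomal protein genes with several probe sets at a signal of 20000 or more (32 probe sets), the SD of the log2 ratio between probe sets of a gene was 0.048. Across the 79 probe sets past the filter of all 29 genes that had several, it was 0.34. In 16 of the 29 genes every such probe set was below 0. In 9 genes the probe sets differed by 0.5 or more, namely RPS28, RPL7, RPS15A, RPL18, RPL37A, RPS14, RPL36, RPS24 and RPS29. RPS28 had a range from -0.97 to 0.55, with its brightest probe set at -0.065. For RPL7 the range was -0.095 to 1.18, and for RPS15A it was -0.18 to 1.03. The highest values came from dim probe sets, with 52.2 (siLuc) and 118 (siIFITM1) for RPL7 and 75.1 and 153 for RPS15A. Of the 14 member probe sets between the filter and the 75th percentile of signal (393), 6 were below 0, against 77 of 88 above that percentile.

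The signal level matters for reading these ratios, because other bright genes were lower as well. Of the ribosomal protein genes, 46 had a mean signal of at least 20000, a level chosen after the data were seen, and 41 of them (89.1%) were below 0. Among 132 other genes at that level 75% were below 0 and 25% above. The median was -0.095 for the ribosomal protein genes and -0.074 for the other genes, a difference of -0.021. It was -0.058 at a minimum of 10000, -0.023 at 30000 and -0.035 at 40000 (16 ribosomal protein genes and 14 other genes). None of the 46 reached 0.32 in either direction, where the background among the other bright genes was 0.758% lower and 0% higher.

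The array's hybridisation controls, transcripts added to the labelled sample in fixed amounts, were lower as well. Their part in the result was not tested. The 18 hybridisation control probe sets had a median log2 ratio of -0.075, and the 4 of them at 20000 or more had a median of -0.066, from -0.095 to 0.017. The ribosomal protein genes therefore sat 0.020 below the controls when the control median was subtracted. Their median was -0.033 after a loess trend of ratio on signal was subtracted and -0.0068 after quantile normalization. It was below 0 under each of these scalings and closer to 0 than without them. Within the 46 bright members, signal and ratio had a Pearson r of -0.13 (n = 46 genes, all read on the same 2 arrays, given as a description).

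**Figure D3:**
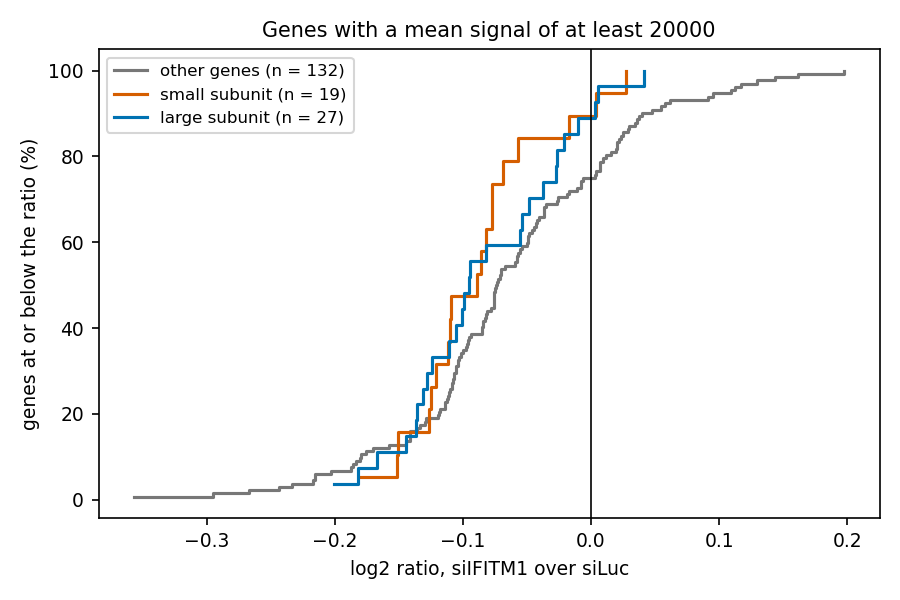
Cumulative share of genes (in percent) by log2 ratio (siIFITM1 over siLuc), for genes with a mean signal of at least 20000: 19 small subunit genes, 27 large subunit genes and 132 other genes. The ribosomal protein curves lie close together and cross 0 near 89%, while the curve of the other genes crosses it at 75% and is wider on both sides.

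Members with and without the pyrimidine run at the annotated start had similar ratios. The grouping depends on where the start is annotated and on the minimum of 5 bases. RPL3 has a run of 4 bases, and the RPL27 window holds a pyrimidine run downstream of its start. Genes counted as without the run may therefore still carry a TOP tract. The 34 with the run had a median of -0.097 with 30 below 0, and the 12 without it had -0.080 with 10 below 0. RPL3, whose start is printed above without capitals, was among the lower genes, and RPL27 was the highest of the bright ones. Among other genes at 20000 or more, the median was -0.075 for 21 genes with the run and -0.075 for 82 without it. The shares below 0 differed, with 20 of the 21 (95.2%) and 58 of the 82 (70.7%). Over all other genes past the filter, the 688 with the run had a median of -0.058 and the 9194 without it -0.011.

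Other mRNAs known to carry a TOP tract had a median of -0.075, which became -0.00035 with the hybridisation controls at 0. Of 16 that passed, 14 were below 0, where the share over all genes was 52.6%. Of the 16, 11 had a signal of 20000 or more, a level at which 75% of the other genes were below 0 with a median of -0.074. The median of the TOP list was 0.12 over the 10 of its genes that remained without probe sets marked as sharing probes. EEF2, the translocation factor of elongation, had 27516 with siLuc and 22427 with siIFITM1 (-0.30), and its probe sets spanned -0.30 to -0.29. EEF1D, an exchange factor of elongation, was at -0.18 and EIF3L, a subunit of an initiation factor, at -0.19. GAS5, a noncoding host of snoRNAs that is known to accumulate when its translation slows, had 246 and 478 (0.96) on 1 probe set. FAU, which encodes a ubiquitin-like protein fused to the small subunit protein RPS30, had 37634 and 34767 (-0.11).

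The paralogs left out by the rule were near 0. Of 8, the 6 that passed had a median of 0.021, and RPL39L and RPL3L did not pass. Below 0 were 2 of the 6 (33.3%), against 52.6% of all genes. RPL22L1 had 4773 with siLuc and 5124 with siIFITM1 (0.10), beside RPL22 with 29448 and 29016 (-0.021). RPS27L, a p53 target, was at 0.040, with probe sets from -0.29 to 0.45, beside RPS27 at -0.077. RPL36AL was at 0.049, RPL7L1 at 0.0030, RPL26L1 at -0.012 and RPL10L at -0.22. None of the 6 had a signal of 20000 or more, so level and paralogy cannot be told apart here.

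Genes that build ribosomes lay on the opposite side. Of 33 measured ribosome assembly genes, 28 were above 0, where the background was 47.4%, and the median was 0.14. A ratio of 0.32 or more was reached by 7 of the 33, against a background of 12.9%, and no representative probe set reached -0.32. Other probe sets past the filter were below -0.32 for UTP14A (-1.22), RIOK2 (-0.42) and PWP2 (-0.36). Outside the 7, others were above 0.32 for NOP16 (1.01), WDR12 (0.47) and HEATR1 (0.38). WDR43, a factor of small subunit processing, had 1688 with siLuc and 2483 with siIFITM1 (0.56). MDN1, the large AAA protein that strips assembly factors from the 60S particle, had 481 and 617 (0.36). RRP12, an export factor, was at 0.33 with probe sets up to 0.94. The other 4 of the 7, TSR1 (0.49), SENP3 (0.44), NOLC1 (0.42) and LAS1L (0.40), each had another probe set below 0, the lowest at -0.21, -0.11, -0.0042 and -0.23. RIOK1, a kinase of late 40S maturation, was just under the threshold, with 716 and 892. By representative probe set the lowest were NOB1, the nuclease that trims 18S RNA (-0.11), and the methyltransferase gene FBL (-0.11). FBL was the only one of the 33 at 20000 or more.

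The median of the assembly genes was 0.16 after median centring, 0.22 with the hybridisation controls at 0, 0.15 after the loess trend was removed and 0.15 after quantile normalization. The median of the assembly genes thus stayed above 0 under each of these 4 scalings. The ribosomal protein median stayed below 0, but was only -0.0068 after quantile normalization, with 57.7% of the genes below 0. Without this scaling 52.6% of all genes were below 0, a share on another scale that is no like background for the 57.7%. The members of both lists were chosen by function and differ in signal level, and no test of the difference was possible with 1 array per siRNA.

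**Figure D4:**
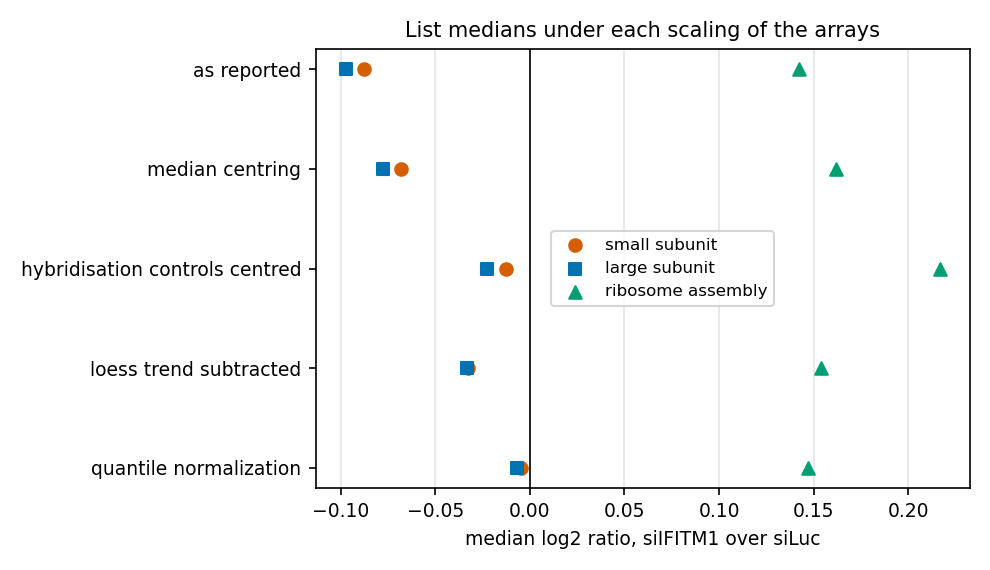
Median log2 ratio (siIFITM1 over siLuc) of the small subunit genes (circles), large subunit genes (squares) and ribosome assembly genes (triangles) under 5 scalings of the 2 arrays, 1 per line. The ribosomal protein medians range from -0.097 to -0.0048 and the assembly median from 0.14 to 0.22.

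The remaining lists were mixed. RNA polymerase I genes had a median of 0.030 with 10 of 14 above 0, against 47.4% of all genes, and none of the 14 reached the threshold of 0.32 in either direction. TAF1D was at 0.21 and POLR1G at -0.17. Mitochondrial ribosomal proteins, which form a separate ribosome in the organelle, had a median of -0.0099. It was 0.0097 after median centring and 0.065 with the controls at 0. Of the 75, 40 (53.3%) were below 0, near the 52.6% of all genes. Among mTORC1 and S6 kinase genes 8 of 13 (61.5%) were below 0, against 52.6% of all genes, with a median of -0.034 that became 0.041 with the controls at 0. The threshold was passed by 3 of 13 on the lower side, where the background was 17.4%, and by 1 on the higher side, where it was 12.9%. RPTOR had 230 with siLuc and 152 with siIFITM1 (-0.60), MTOR had 267 and 210 (-0.34), DEPTOR was at -0.43, and the S6 kinase gene RPS6KB1 was at 0.34. RPTOR and MTOR were read by probe sets below the 75th percentile of signal. LARP1, the TOP-binding protein, had 11804 and 11711 (-0.012).

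**Figure D5:**
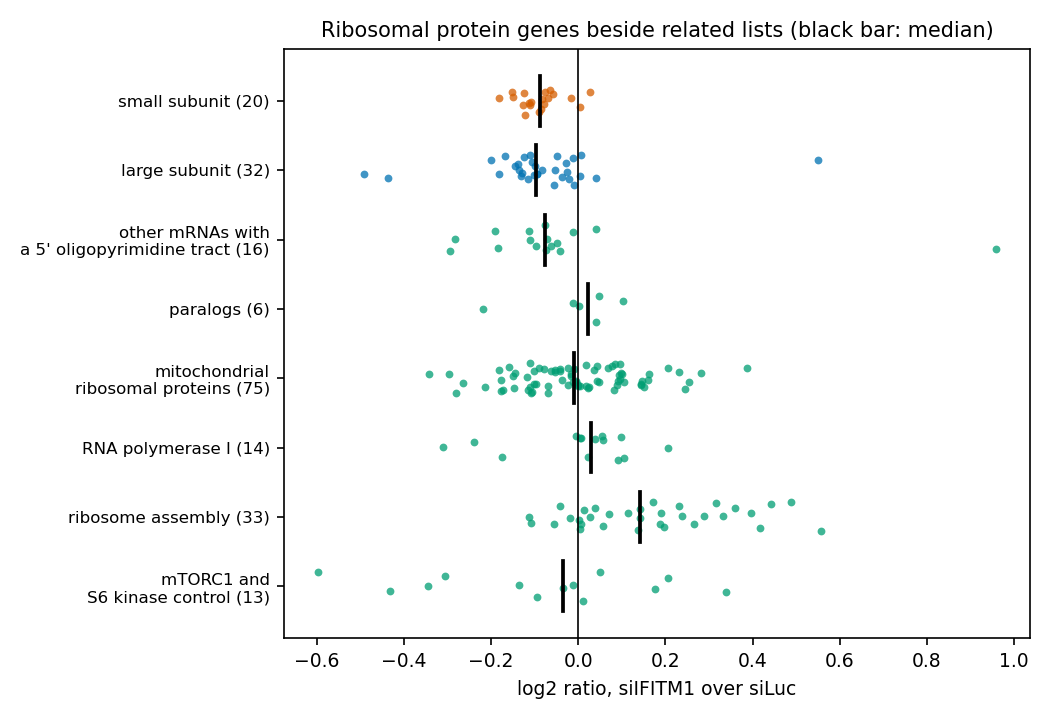
Log2 ratio (siIFITM1 over siLuc) of every gene past the filter in the ribosomal protein groups and in 6 related lists, with the number of genes in brackets and the median as a black bar; points are spread vertically for visibility. Ribosomal protein genes cluster near -0.095, and 28 of the 33 assembly genes lie above 0.

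Members known as Diamond-Blackfan anaemia genes, in which loss of a single copy impairs red cell formation, lay inside the band of the bright members. The 13 measured ones had a median of -0.065, from RPS29 (-0.15) to RPL27 (0.042). The median was 0.023 after quantile normalization and 0.0094 with the controls at 0. Of the 13, 11 (84.6%) were below 0, against 52.6% of all genes. A signal of 20000 or more was found for 12 of the 13, a level at which 75% of the other genes were below 0.

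Probe sets that list a ribosomal protein gene together with other genes, mostly snoRNA genes of its introns, gave a further view. There were 64 such probe sets, 63 passed the filter, and they brought in 15 symbols not measured otherwise. Of the 63, 55 were below 0, against 52.6% of all genes, and the median was -0.11. At 20000 or more, 44 of 46 were below 0 with a median of -0.12. Of the other genes at that level, 75% were below 0, with a median of -0.074. When those listing only snoRNA or microRNA genes beside the ribosomal protein gene were added, 64 genes could be represented. Of these 64, 57 (89.1%) were below 0, against 52.6% of all genes, and the median was -0.097.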

How the data were processed

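Total RNA of HT-29 cells transfected with siLuc or siIFITM1 was amplified to biotin-labelled cRNA and hybridised to single-colour Affymetrix arrays, 1 per siRNA, per the labels' protocols. The deposited values are intensities on a linear scale. The submitters' processing notes name MAS5 and give no version. Detection calls were not used here. Of 54613 probe sets that are not controls, 41091 name 1 gene, 1801 several and 11721 none; symbols were updated by Entrez identifier for 41037. RefSeq tables of GRCh38.p14 gave symbols and gene starts.

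Signals were taken to log2 without further scaling. The probe set with the highest mean log2 signal stood for a gene, and genes at or above the 50th percentile of signal were kept (12225 of 19775). The threshold of 0.32 on the log2 scale describes size only. Precision is limited by having 1 array per siRNA. IDs ending in _x_at or _s_at mark probes shared between transcripts; they read 41 of the 52 genes that passed, and pseudogene or paralog RNA may add to them.

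The genes and lists were chosen with earlier results of these data known. Named genes were the 6 lowest and 4 highest ratios per subunit, members of the stalk and of the 5S particle and other fixed symbols, members past the 0.32 threshold, paralogs, members whose probe sets differed by 0.5 or more, and up to 4 genes per related list whose probe sets shared a sign. TSR1, SENP3, NOLC1, LAS1L, NOB1, FBL, LARP1, UTP14A, RIOK2, PWP2, NOP16, WDR12 and HEATR1 were added after their values were seen. Alternatives were median centring, quantile normalization, a loess trend (span 0.3), centring on hybridisation controls, a pseudocount of 32, other filters, averaging of probe sets, omission of shared-probe IDs and every probe set on its own. A minimum signal of 20000 and the addition of probe sets that list snoRNA genes were chosen after seeing the data. The calculation was tested on simulated arrays. Python 3.11.15, numpy 2.4.6, pandas 2.3.3, scipy 1.17.1, statsmodels 0.14.6 and matplotlib 3.10.9 were used.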

Additional observations from a re-analysis of the deposited data

Results flagged for a closer look

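Probe sets that list a ribosomal protein gene together with other genes entered no gene value, apart from the alternative that adds those with snoRNA or microRNA genes. Of the 63 past the filter, 1 exceeded its siLuc value by 0.32 or more on the log2 scale, where the background was 12.9% of all genes. It is listed for RPL27A and SNORA3A and had 126 with siLuc and 209 with siIFITM1 (log2 ratio 0.73), while the brighter probe set with the same listing was at 0.038. On the lower side there were 4 such probe sets, where the background was 17.4% of all genes. The single probe set that did not pass the filter, listed for RPL5 with SNORA66 and SNORD21, had 11.4 and 25.8.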

How the results depend on the processing

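No paired analysis was possible because there was 1 array per siRNA, and for the same reason no replicate could be left out. Values are called moved here when they differ by more than the SD of 0.048 between bright probe sets of a gene. The median ratio of the ribosomal protein genes was -0.0068 after quantile normalization (small subunit -0.0048, large subunit -0.0070, 57.7% of genes below 0). It was -0.033 after subtraction of the loess trend (small -0.033, large -0.033, 71.2% below 0) and -0.020 with the hybridisation controls at 0 (small -0.013, large -0.023, 63.5% below 0). With the mean over probe sets 75% of genes were below 0 and 4 were lower by 0.32 or more on the log2 scale. Without probe sets whose IDs mark shared probes, 25 genes were left, 68% were below 0, 4 were lower by that much, and the large minus small difference was 0.044. The share of all genes below 0 was at hand only for unscaled representative probe sets (52.6%). The shares in this paragraph therefore have no like background. With probe sets that also list snoRNA or microRNA genes, RPLP2 moved from -0.49 to -0.13 and RPL27A turned from -0.44 to 0.038. The 1 gene lower by that much was then RPL13A (-0.34), which has no probe set of its own. Its other probe sets, which also list pseudogenes, were at -0.18 to -0.064. At a signal of 20000 or more, 0 genes were lower by that much. The other 48 recomputed medians, differences, shares and counts of the ribosomal protein genes moved by less than that spread or stayed within the limits set for shares and counts. Ratios of single named genes and medians of the related lists moved by less than 0.048 in 338 recomputations and by more in the rest. The sign turned in 28 recomputed values of 14 named genes and in 10 of list medians. Examples without shared-probe IDs were RPL7, from -0.095 to 1.18, and RPS14, from -0.068 to 0.60. Both then rested on dim probe sets, with 52.2 (siLuc) and 118 (siIFITM1) for RPL7 and 122 and 185 for RPS14. The siLuc value of RPL7 was below the filter level of 57.4. Among ribosomal protein genes past the 0.32 threshold the turn of RPL27A was the only one. The brighter probe set listed for RPL36A and its readthrough locus (-0.094) entered none of these alternatives. Single genes of the assembly, TOP and mTORC1 lists were not recomputed. Depth, as signal over background, limits the dimmer probe sets most.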

Other observations

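Pseudogenes of ribosomal protein genes, by RefSeq biotype, had 8 probe sets of their own past the filter. Of these, 5 were below 0 and 3 above, with a median log2 ratio (siIFITM1 over siLuc) of -0.091 and a range from -0.82 to 0.43. Their siLuc signals ran from 57.9 to 746, so none was in the bright range that holds most of the members.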
